A study of Sus scrofa with 12 samples.

Results

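The integrin subunits described here are 10 genes of porcine muscle satellite cells, taken by gene symbol from the deposited expression table: the alpha subunits ITGA3, ITGA5, ITGA6, ITGA7, ITGA11 and ITGAV, and the beta subunits ITGB1, ITGB3, ITGB5 and ITGB8. They are 10 of 31908 genes in the table, each found once, and all 10 were among the 11636 genes tested. The lowest member value in any library was 2.21 FPKM (reads scaled by gene length and library size), so no member entered the test through 1 group alone.

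Satellite cells are the stem cells of skeletal muscle, which divide as myoblasts and then fuse into myotubes. RNA-seq was made from 4 groups of 3 libraries: the arm labelled CBP at 60h, the control arm labelled WT (NC in the table) at 60h, the CBP arm at 0h and WT at 0h, where 60h is labelled differentiation and 0h proliferation. CBP is read here as cells given SGC-CBP30, a bromodomain inhibitor of the paired histone acetyltransferases CBP and p300, for 48 h before the 0h collection and for 60 h in differentiation. The labels state this treatment on every sample, put the arm names under a genotype tag, name no control treatment, give the dose in an unclear unit (5 uM/ml) and call the cell line C3H, so the identity of the CBP arm is a reading of the labels. Whether the replicates were separate cultures is not stated, so the p-values measure the spread between these libraries, which may be technical. Library totals recovered from the FPKM steps were 16095335 to 19155240 reads, and a member had between 299 reads (ITGB8) and 54846 reads (ITGB1) in a library. The myogenic factors PAX7, MYF5 and MYOG, which mark the muscle lineage, averaged 8.88, 115 and 28.5 FPKM in CBP cells at 0h and 14.4, 136 and 343 FPKM in WT cells at 0h. The leukocyte gene CD3E and the epithelial gene EPCAM had no read in any library, while the leukocyte-list genes CD68 and CD14 averaged up to 4.38 and 2.31 FPKM in a group and the epithelial gene CDH1 up to 2.25 FPKM.

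Integrins are receptors of the cell surface made of 1 alpha and 1 beta chain, which join the extracellular matrix to the actin cytoskeleton. The alpha chain largely sets the ligand: ITGA3, ITGA6 and ITGA7 form laminin receptors, ITGA5 and ITGAV form receptors for fibronectin, vitronectin and other proteins with an RGD motif, and ITGA11 forms a receptor for fibrillar collagen. ITGB1 is the common partner of these alpha chains, and ITGAV also pairs with ITGB3, ITGB5, ITGB6 and ITGB8. In skeletal muscle the integrin of ITGA7 and ITGB1 holds the fibre to the laminin of its basement membrane, and in mice ITGB1 is needed for myoblast fusion and for the upkeep of satellite cells. Splice forms of ITGA6, ITGA7 and ITGB1, which change during myogenesis, are summed in these gene values.

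ITGB1 and ITGA7 made up most of the integrin transcript in every group, and subunits differed between the CBP and WT arms in both directions. At 60h, 4 of the 10 members were higher and 5 lower in CBP than in WT cells (limma, Benjamini-Hochberg adjusted p under 0.05), with 44.7% of all tested genes called higher and 27.0% lower. At 0h, 3 members were higher and 6 lower, against 44.2% and 18.1% of all genes. The median log2 change of the members was -0.07 at 60h and -0.14 at 0h, and that of all tested genes was 0.10 and 0.12. Between the stages, 8 members were higher and 1 lower at 60h than at 0h in CBP cells, where 31.3% of all genes were called higher and 41.5% lower. In WT cells 7 were higher and 3 lower, where 28.8% of all genes were called higher and 38.0% lower. Scaling moved these backgrounds. With median-of-ratios scaling the share of calls that were higher with CBP was 47.8% at 60h and 49.1% at 0h, against 62.4% and 71.0% as deposited, and 2 members in place of 3 were called higher at 0h. With TPM scaling the share of calls higher at 60h than at 0h was 54.7% in CBP cells and 53.0% in WT cells, against 43.0% and 43.1% as deposited. The CBP effect at 60h differed from that at 0h for 8 members, 5 with a higher and 3 with a lower value at 60h, while 24.3% and 26.7% of all genes were called in these directions. Log2 changes were taken as differences of log2(FPKM + 1), so those of low genes come out too small. Within a stage the libraries of the CBP and WT arms did not overlap for any member, apart from ITGAV at 60h and ITGB3 at 0h. The share of all tested genes without overlap was not counted, so this is not read as particular to the integrins. In bulk RNA, fewer cells of a type and less RNA per cell cannot be told apart.

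**Figure D1:**
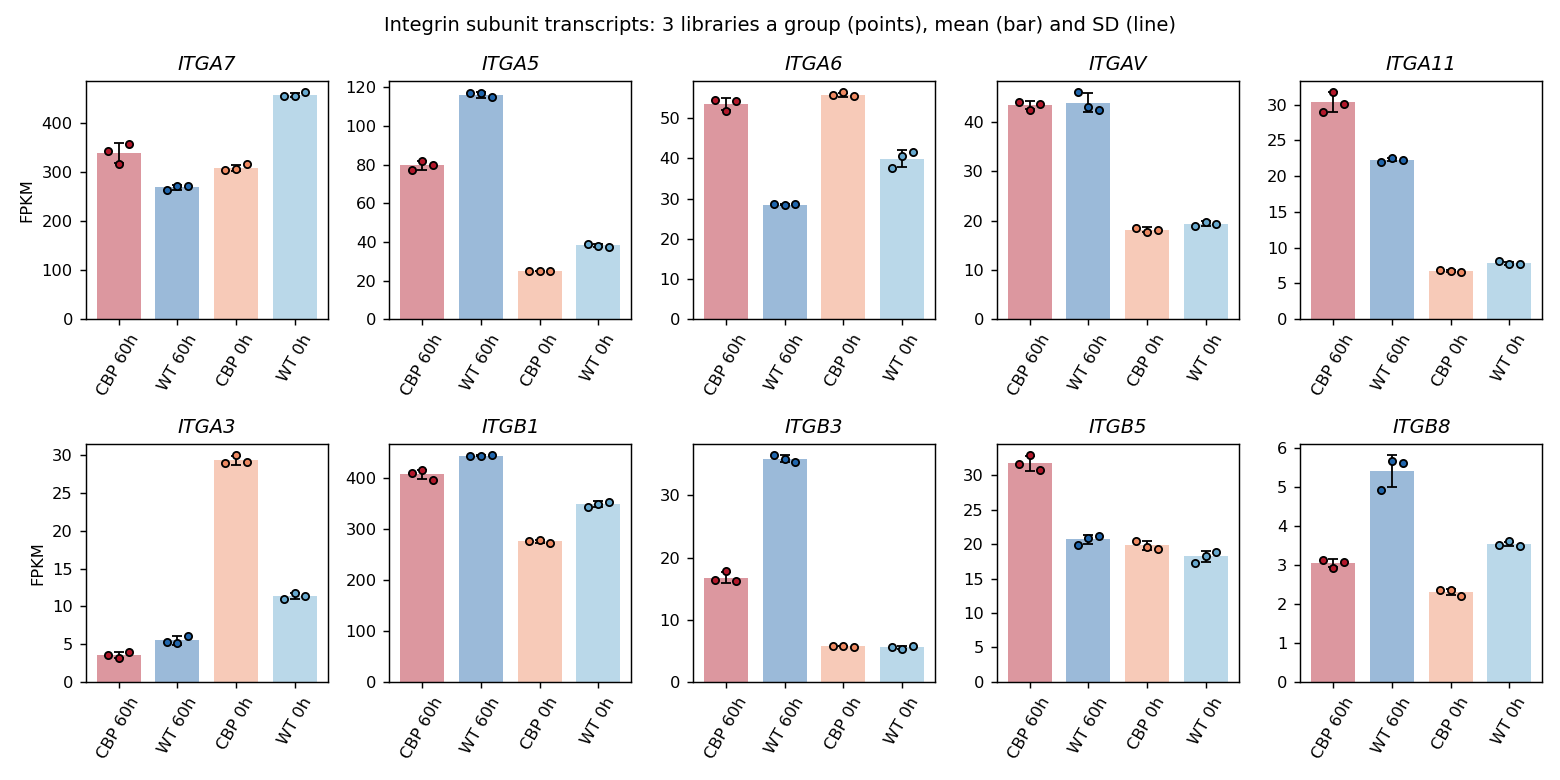
FPKM (linear axis from 0) of the 10 integrin subunits in the 4 groups, with 1 point a library, bars for the mean and lines for the SD (n = 3). ITGA7 stands between 304 and 316 FPKM in CBP cells at 0h and between 456 and 463 FPKM in WT cells at 0h, and ITGB3 between 16.3 and 17.8 FPKM in CBP cells at 60h and between 35.4 and 36.5 FPKM in WT cells at 60h.

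ITGA7 (ENSSSCG00000036237, chromosome 5, 21126565 to 21150875 in Sscrofa11.1), the laminin-binding alpha chain of muscle, was higher in CBP than in WT cells at 60h and lower at 0h. At 60h it had 344, 316 and 357 FPKM in CBP cells and 264, 271 and 271 FPKM in WT cells, a 1.26-fold difference (log2 change 0.33, SE 0.037, limma adjusted p = 6.27e-06). At 0h it had 304, 307 and 316 FPKM in CBP cells and 456, 456 and 463 FPKM in WT cells, 1.48-fold lower with CBP (log2 change -0.57, SE 0.037, limma adjusted p = 1.13e-07). In neither stage did the groups overlap, and the difference between the stages was 0.90 on the log2 scale (SE 0.053, limma adjusted p = 6.89e-08). From the side of time, ITGA7 was 1.71-fold lower at 60h than at 0h in WT cells and 1.10-fold higher at 60h in CBP cells (log2 change 0.13, SE 0.037, limma adjusted p = 0.00708). The WT cells at 0h thus held the highest level of this transcript and the WT cells at 60h the lowest.

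ITGA6 (ENSSSCG00000015955, chromosome 15, 78504108 to 78591779), a laminin-binding chain known from myoblasts in mice, was higher with CBP in both stages. The 60h libraries held 54.5, 51.7 and 54.3 FPKM in CBP cells and 28.6, 28.4 and 28.6 FPKM in WT cells, 1.88-fold higher with CBP (log2 change 0.88, SE 0.035, limma adjusted p = 5.84e-10). At 0h the values were 55.7, 56.4 and 55.4 FPKM in CBP cells and 37.6, 40.5 and 41.6 FPKM in WT cells, 1.40-fold higher with CBP (log2 change 0.48, SE 0.035, limma adjusted p = 3.11e-07). The effect at 60h exceeded that at 0h by 0.41 on the log2 scale (SE 0.05, limma adjusted p = 2.96e-05). WT cells had 1.40-fold less ITGA6 at 60h than at 0h. In CBP cells 60h differed from 0h by -0.06 (95% interval -0.14 to 0.02, limma adjusted p = 0.142), a change whose sign turned under TPM scaling (0.05) and median-of-ratios scaling (0.01).

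ITGA3 (ENSSSCG00000017578, chromosome 12, 26234769 to 26269327), a laminin receptor chain best known from epithelia, had the largest change of the 10 members between CBP and WT cells at 0h. Its change at 60h was smaller and in the opposite direction. At 60h it had 3.55, 3.19 and 3.91 FPKM in CBP cells and 5.23, 5.12 and 6.12 FPKM in WT cells, 1.55-fold lower with CBP (log2 change -0.51, SE 0.065, limma adjusted p = 1.84e-05). The 0h libraries held 28.9, 30.0 and 29.1 FPKM in CBP cells and 11.0, 11.7 and 11.4 FPKM in WT cells, 2.58-fold higher with CBP (log2 change 1.29, SE 0.065, limma adjusted p = 1.14e-08). The difference between the stages was -1.80 (SE 0.092, limma adjusted p = 2.26e-08). ITGA3 was lower at 60h than at 0h in both arms, 8.26-fold in CBP cells (log2 change -2.74) and 2.07-fold in WT cells (log2 change -0.94). ITGB4, which pairs with ITGA6 and is no member, was also lower at 60h than at 0h, with 0.207 against 2.55 FPKM in CBP cells and 0.603 against 3.16 FPKM in WT cells.

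ITGB1 (ENSSSCG00000011101, chromosome 10, 56078393 to 56130608), the shared beta chain, was lower with CBP in both stages. The 60h libraries held 410, 415 and 397 FPKM in CBP cells and 444, 444 and 445 FPKM in WT cells, 1.09-fold lower with CBP (log2 change -0.13, SE 0.023, limma adjusted p = 0.000322). Its 0h values were 277, 278 and 272 FPKM in CBP cells and 343, 349 and 353 FPKM in WT cells, 1.26-fold lower with CBP (log2 change -0.34, SE 0.023, limma adjusted p = 1.44e-07). The 2 arms were closer at 60h, where the effect was 0.21 less negative (SE 0.032, limma adjusted p = 0.000183). ITGB1 was higher at 60h than at 0h in both arms, 1.48-fold in CBP cells and 1.27-fold in WT cells. Every library at 60h stood above every library at 0h.

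**Figure D2:**
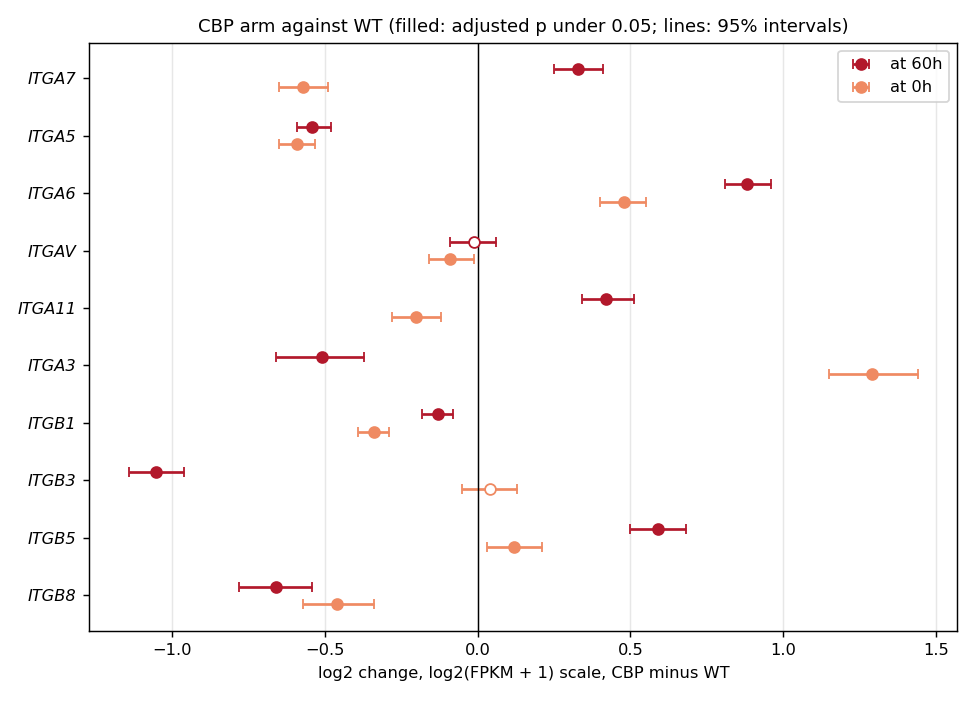
Log2 change of CBP minus WT (x axis, log2(FPKM + 1) scale) of each subunit at 60h (dark) and at 0h (light), with 95% intervals from limma and filled points for an adjusted p under 0.05. ITGA7 and ITGA11 lie right of 0 at 60h and left of it at 0h, ITGA3 the other way round, and ITGA5, ITGB1 and ITGB8 lie left of 0 in both stages.

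ITGA5 (ENSSSCG00000000293, chromosome 5, 19587361 to 19610580), the alpha chain of the classical fibronectin receptor, was lower with CBP in both stages. At 60h it had 77.5, 82.1 and 79.8 FPKM in CBP cells and 117, 117 and 115 FPKM in WT cells, 1.46-fold lower with CBP (log2 change -0.54, SE 0.027, limma adjusted p = 4.76e-09). At 0h it had 25.1, 25.1 and 24.8 FPKM in CBP cells and 39.2, 37.8 and 37.6 FPKM in WT cells, 1.53-fold lower with CBP (log2 change -0.59, SE 0.027, limma adjusted p = 4.63e-09). No difference between the 2 effects passed the test (0.06, 95% interval -0.03 to 0.14, limma adjusted p = 0.244). ITGA5 was 3.19-fold higher at 60h than at 0h in CBP cells and 3.04-fold higher in WT cells. Its ligand fibronectin, FN1, was lower with CBP at 60h (1126 FPKM in CBP cells, 1315 FPKM in WT cells, log2 change -0.22) and did not pass the test at 0h (726 and 722 FPKM, log2 change 0.01, limma adjusted p = 0.823).

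ITGAV (ENSSSCG00000016027, chromosome 15, 91604666 to 91711843), the alpha chain that ITGB3, ITGB5 and ITGB8 share, was the member closest to equal between the arms at 60h. The 60h libraries held 44.1, 42.5 and 43.7 FPKM in CBP cells and 46.0, 43.1 and 42.4 FPKM in WT cells. These groups overlapped, and the difference did not pass the test (log2 change -0.01, 95% interval -0.09 to 0.06, limma adjusted p = 0.754). The 0h libraries held 18.6, 17.7 and 18.2 FPKM in CBP cells and 18.9, 19.8 and 19.4 FPKM in WT cells (log2 change -0.09, SE 0.035, limma adjusted p = 0.0494). That call at 0h was lost in 8 of the alternative settings, among them without CBP replicate 2 (adjusted p = 0.151 by limma) or 3 (0.0833) and without WT replicate 2 (0.154) or 3 (0.103). ITGAV was 2.39-fold higher at 60h than at 0h in CBP cells and 2.27-fold higher in WT cells. A RefSeq pseudogene overlaps the end of ITGAV, and the strand setting of the counting is not given in the sources used here.

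Among ITGB3, ITGB5 and ITGB8, the members besides ITGB1 that pair with ITGAV, ITGB3 (ENSSSCG00000017306, chromosome 12, 16694466 to 16752228), the beta chain of the vitronectin receptor and of the platelet fibrinogen receptor, differed most between the arms at 60h. It had 16.4, 17.8 and 16.3 FPKM in CBP cells at 60h and 36.5, 35.8 and 35.4 FPKM in WT cells at 60h, 2.14-fold lower with CBP (log2 change -1.05, SE 0.041, limma adjusted p = 4.59e-10). Its 0h values were 5.81, 5.81 and 5.70 FPKM in CBP cells and 5.70, 5.27 and 5.75 FPKM in WT cells. The groups overlapped at 0h and no difference was called (log2 change 0.04, 95% interval -0.05 to 0.13, limma adjusted p = 0.368). ITGB3 was 2.91-fold higher at 60h than at 0h in CBP cells and 6.44-fold higher in WT cells, and these 2 changes differed by -1.10 on the log2 scale (SE 0.058, limma adjusted p = 2.84e-08). The rise between the stages was thus present in both arms and smaller in CBP cells.

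ITGB5 (ENSSSCG00000037905, chromosome 13, 135468111 to 135587483), a second beta chain for vitronectin binding, was higher with CBP at 60h. It had 31.6, 32.9 and 30.7 FPKM in CBP cells at 60h and 19.9, 20.9 and 21.2 FPKM in WT cells at 60h, 1.54-fold higher with CBP (log2 change 0.59, SE 0.041, limma adjusted p = 7.80e-08). At 0h it had 20.5, 19.5 and 19.3 FPKM in CBP cells and 17.3, 18.3 and 18.9 FPKM in WT cells (log2 change 0.12, SE 0.041, limma adjusted p = 0.0264). The change at 0h equalled the median of all genes (0.12) and was -0.01 after median-of-ratios scaling (limma adjusted p = 0.869), so no direction is given for it. The call at 0h was also lost without CBP replicate 1 (limma adjusted p = 0.103) and without WT replicate 1 (0.112). ITGB5 was 1.60-fold higher at 60h than at 0h in CBP cells and 1.14-fold higher in WT cells, a difference of 0.48 (SE 0.058, limma adjusted p = 2.87e-05).

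ITGB8 (ENSSSCG00000015375, chromosome 9, 89342245 to 89450701), whose integrin with ITGAV binds latent TGF-beta, was the lowest or close to the lowest member and was lower with CBP in both stages. At 60h it had 3.13, 2.93 and 3.08 FPKM in CBP cells and 4.93, 5.68 and 5.62 FPKM in WT cells, 1.77-fold lower with CBP (log2 change -0.66, SE 0.054, limma adjusted p = 3.40e-07). The 0h libraries held 2.37, 2.36 and 2.21 FPKM in CBP cells and 3.51, 3.61 and 3.50 FPKM in WT cells, 1.53-fold lower with CBP (log2 change -0.46, SE 0.054, limma adjusted p = 1.63e-05). The effect at 60h was called stronger than that at 0h (difference -0.21, SE 0.076, limma adjusted p = 0.0399). That call was lost in 14 alternative settings, 9 of which left out 1 library, with adjusted p up to 0.107. ITGB8 was 1.32-fold higher at 60h than at 0h in CBP cells and 1.53-fold higher in WT cells.

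ITGA11 (ENSSSCG00000004961, chromosome 1, 166186601 to 166311046), the collagen-binding chain known from fibroblasts and other mesenchymal cells, was higher with CBP at 60h and lower at 0h. The 60h libraries held 29.0, 31.7 and 30.1 FPKM in CBP cells and 22.0, 22.5 and 22.3 FPKM in WT cells, 1.36-fold higher with CBP (log2 change 0.42, SE 0.037, limma adjusted p = 6.60e-07). Its 0h values were 6.83, 6.79 and 6.55 FPKM in CBP cells and 8.10, 7.76 and 7.70 FPKM in WT cells, 1.17-fold lower with CBP (log2 change -0.20, SE 0.037, limma adjusted p = 0.000633). The 2 effects differed by 0.62 (SE 0.052, limma adjusted p = 1.38e-06). ITGA11 was 4.50-fold higher at 60h than at 0h in CBP cells, the largest rise of a member in that arm, and 2.84-fold higher in WT cells. Of the 5 collagen chains listed as its ligands, 4 were lower and 1 higher in CBP than in WT cells at 60h, and all 5 were lower at 0h. The 1 higher chain, COL3A1, was not called with median-of-ratios scaling. Of all genes, 44.7% were called higher and 27.0% lower at 60h, and 44.2% and 18.1% at 0h.

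**Figure D3:**
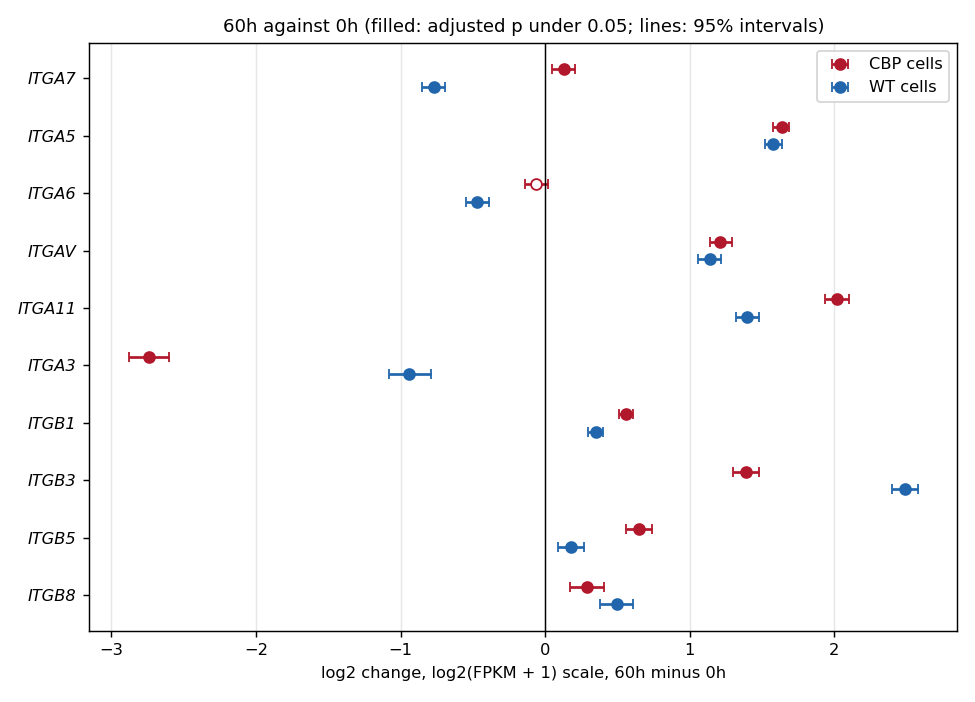
Log2 change of 60h minus 0h (x axis, log2(FPKM + 1) scale) of each subunit in CBP cells and in WT cells, with 95% intervals from limma and filled points for an adjusted p under 0.05. ITGB3 stands at 1.39 in CBP cells and 2.49 in WT cells, ITGA3 at -2.74 and -0.94, and ITGA7 at 0.13 and -0.77.

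The make-up of the integrin transcript therefore differed between the groups, which was described as each subunit's share of the summed FPKM of its kind. Among the 6 alpha chains, ITGA7 held 61.6% ± 1.49 in CBP cells and 55.4% ± 0.625 in WT cells at 60h, and 69.6% ± 0.555 in CBP cells and 79.7% ± 0.209 in WT cells at 0h (SD, n = 3). The fibronectin receptor chain ITGA5 held 14.5% ± 0.891 in CBP cells and 23.9% ± 0.308 in WT cells at 60h, and 5.63% ± 0.113 and 6.64% ± 0.197 at 0h. ITGA6 held 9.74% ± 0.163 in CBP cells and 5.88% ± 0.0471 in WT cells at 60h, and 12.6% ± 0.224 and 6.94% ± 0.308 at 0h. Laminin receptor chains other than ITGA7 thus took a larger share in CBP cells at 0h, where ITGA3 also held 6.61% ± 0.16, against 1.98% ± 0.063 in WT cells. None of these share ranges overlapped between CBP and WT cells of 1 stage, and each two-sided exact permutation test gave p = 0.1, the smallest that 3 against 3 libraries allow.

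ITGB1 held between 87.7% and 92.8% of the summed FPKM of the 4 beta chains in every library. Among the other 3, ITGB3 held 32.6% ± 0.534 in CBP cells and 57.9% ± 1.35 in WT cells at 60h (SD, n = 3; exact permutation p = 0.1, two-sided, the smallest possible). ITGB5 held 61.5% ± 0.262 in CBP cells and 33.3% ± 0.775 in WT cells at 60h. In WT cells at 60h ITGB3 was therefore the most abundant of these 3 chains, and in CBP cells ITGB5 was. At 0h ITGB5 led in both arms, with 71.0% ± 0.517 in CBP cells and 66.6% ± 1.18 in WT cells, and the share of ITGB3 was 20.7% ± 0.415 and 20.4% ± 1.07 (exact permutation p = 0.8, n = 3 each).

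**Figure D4:**
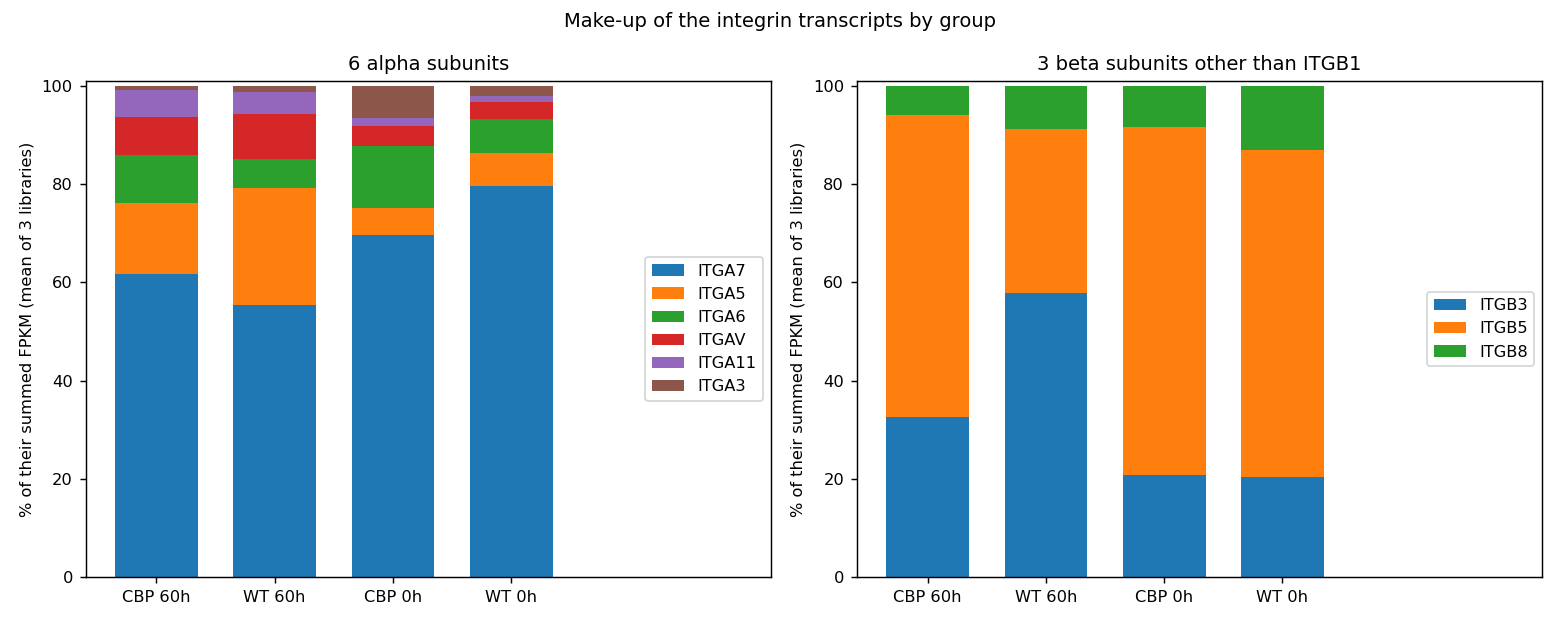
Mean share (y axis, % of summed FPKM, 3 libraries a group) of each of the 6 alpha chains and of the 3 beta chains other than ITGB1. ITGA7 holds 61.6% of the alpha sum shown in CBP cells and 55.4% in WT cells at 60h, and ITGB5 61.5% of the beta sum shown in CBP cells and 33.3% in WT cells at 60h.

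Ranked by mean FPKM, ITGB1 and ITGA7 were the top pair in all 4 groups, with ITGB1 first at 60h and ITGA7 first at 0h in both arms. In CBP cells at 60h the order went on with ITGA5, ITGA6, ITGAV, ITGB5, ITGA11, ITGB3, ITGA3 and ITGB8, and only ITGB5 and ITGA11 overlapped as neighbours. In WT cells at 60h it went on with ITGA5, ITGAV, ITGB3, ITGA6, ITGA11, ITGB5, ITGA3 and ITGB8, and only the last 2 overlapped. In CBP cells at 0h it went on with ITGA6, ITGA3, ITGA5, ITGB5, ITGAV, ITGA11, ITGB3 and ITGB8, with no overlap between neighbours. In WT cells at 0h it went on with ITGA6, ITGA5, ITGAV, ITGB5, ITGA3, ITGA11, ITGB3 and ITGB8, and the pairs ITGA6 with ITGA5 and ITGAV with ITGB5 overlapped. ITGA3 thus stood above ITGA5, ITGB5 and ITGAV in CBP cells at 0h and below them in WT cells at 0h.

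The members did not share 1 profile. Likeness was measured as the root mean square difference of centred log2(FPKM + 1) profiles over the 12 libraries, which come from 4 groups and so hold few independent points. The smallest distances between members were those of ITGB1 with ITGB8 (0.202), ITGB1 with ITGB5 (0.304), ITGA11 with ITGAV (0.315) and ITGA5 with ITGB3 (0.336). The measure is small for any pair of genes that vary little: the distance from a flat profile was 0.261 for ITGB1, 0.348 for ITGB8 and 0.301 for ITGB5, so ITGB1 and ITGB5 lay no nearer to each other than to a flat profile. It was 0.87 for ITGA11, 0.59 for ITGAV, 0.852 for ITGA5 and 1.04 for ITGB3. Over all tested genes with a symbol, the gene nearest to ITGA5 was the collagen chain COL6A1 (0.0553), nearest to ITGA11 was the laminin chain LAMA4 (0.104), and LAMB1, another laminin chain, was among the nearest to ITGB5 (0.0541). Nearest to ITGB1 was PRKAR1A (0.0322), a regulatory subunit of protein kinase A, and nearest to ITGA7 was CDC25B (0.0345), a cell cycle phosphatase. ITGB3 lay nearest to the neuropeptide receptor NPY1R (0.0974), and ITGA3 nearest to the metallothionein MT1X (0.231), the least close match of a member. The first matches of the rest were RCBTB1 for ITGA6 (0.0445), CALCOCO1 for ITGAV (0.0538), PJA1 for ITGB5 (0.0486) and SEL1L for ITGB8 (0.0598).

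Of 16 further subunits, 14 were found in the table and 10 tested, of which 1 was higher and 8 lower with CBP at 60h, and 1 higher and 5 lower at 0h. Over all genes the shares were 44.7% higher and 27.0% lower at 60h, and 44.2% and 18.1% at 0h. The 1 higher at 60h, ITGA2B (log2 change 0.17), was not called with median-of-ratios (limma adjusted p = 0.336) or quantile scaling (0.0517). The most abundant at 60h in both arms was ITGA8, an RGD-binding partner of ITGB1, with 16.3 to 17.9 FPKM in CBP cells and a mean of 65.5 FPKM in WT cells at 60h (3.86-fold lower, log2 change -1.89, SE 0.046, limma adjusted p = 1.07e-11). The 0h values were 4.85 to 5.24 FPKM in CBP cells and 16.9 to 18.7 FPKM in WT cells (3.58-fold lower, log2 change -1.66, limma adjusted p = 6.08e-11). ITGB6, a further partner of ITGAV, had 18 to 20 reads a library in CBP cells and 345 to 376 reads in WT cells at 60h, or 0.181 and 3.60 FPKM, a log2 change of -1.96 (limma adjusted p = 1.81e-10). The collagen receptor chain ITGA1 averaged 4.11 FPKM in CBP cells and 6.17 FPKM in WT cells at 60h, and 3.16 and 4.90 FPKM at 0h, lower with CBP in both stages (log2 change -0.49 and -0.50). ITGA4, which binds VCAM1 and fibronectin, was 2.27-fold lower at 60h and 1.75-fold lower at 0h.

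Among the cytoplasmic adaptors that tie integrin tails to actin, 4 of 25 tested were higher and 16 lower with CBP at 60h, and 3 were higher and 14 lower at 0h (medians -0.30 and -0.22, against 0.10 and 0.12 for all genes). LIMS2, an adaptor that binds the kinase-like protein ILK, fell to 3.78 FPKM in CBP cells, against 11.6 FPKM in WT cells, at 60h, and to 3.85 FPKM against 21.6 FPKM at 0h. Tensin TNS1 was 52.5 FPKM in CBP cells and 126 FPKM in WT cells at 60h (log2 change -1.25), and 90.2 and 161 FPKM at 0h (log2 change -0.83). The melusin gene ITGB1BP2, a muscle protein that binds the tail of ITGB1, had 0.40 FPKM in CBP cells and 1.80 FPKM in WT cells at 60h (4.5-fold lower, limma adjusted p = 1.2e-05), on 4 to 13 and 35 to 50 reads a library. TES, a protein of focal adhesions, was 1.72-fold higher with CBP at 0h. Of 16 tested kinases and signalling proteins of adhesions, 8 were higher and 3 lower at 60h, and 10 higher and 4 lower at 0h. Of all genes, 44.7% were called higher and 27.0% lower at 60h, and 44.2% and 18.1% at 0h. The medians of this list, 0.16 and 0.11, were close to those of all genes, 0.10 and 0.12. At 0h the balance of this list turned with median-of-ratios scaling, to 1 higher and 6 lower, tried after the data were seen. The balance did not turn with TPM scaling (8 higher and 5 lower) or quantile scaling (8 higher and 4 lower). SRC, a tyrosine kinase activated at adhesions, was 1.70-fold and the exchange factor DOCK1 1.39-fold higher at 60h, while ARHGEF6, an exchange factor for Rac, was lower in both stages (log2 change -1.11 at 60h and -0.80 at 0h). FYN and NEDD9, a kinase and a docking protein of adhesions, were lower at 0h (log2 change -0.67 and -0.59).

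Membrane proteins that bind integrins were lower in 9 and higher in 3 of 15 tested cases with CBP at 60h, and lower in 7 and higher in 3 at 0h. Of all genes, 44.7% were called higher and 27.0% lower at 60h, and 44.2% and 18.1% at 0h. With median-of-ratios scaling 11 of these membrane proteins were lower and 2 higher at 0h, where 49.1% of the calls over all genes were higher. The medians of this list as deposited were -0.22 at 60h and -0.14 at 0h, against 0.10 and 0.12 for all genes. Caveolin CAV1 had 29.0 FPKM in CBP cells and 113 FPKM in WT cells at 60h (log2 change -1.93), and the urokinase receptor PLAUR 24.1 and 62.6 FPKM (log2 change -1.34). The tetraspanin CD9, known for its part in cell fusion, was 2.55-fold lower with CBP at 60h and 1.32-fold higher at 0h. At 0h CAV1, the tetraspanin CD82 and the protease ADAM12 were lower with CBP (log2 change -0.93, -0.75 and -0.64).

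Laminin chains, the ligands of ITGA3, ITGA6 and ITGA7, were higher in 4 and lower in 1 of 6 tested cases with CBP at 60h, and higher in 1 and lower in 5 at 0h. For this and the next lists, 44.7% of all genes were called higher and 27.0% lower at 60h, and 44.2% and 18.1% at 0h. LAMB1 had 138 FPKM in CBP cells and 91.4 FPKM in WT cells at 60h (log2 change 0.59), and LAMA4 44.9 and 34.5 FPKM (log2 change 0.37). RGD and provisional matrix ligands were lower in 8 and higher in 2 of 12 cases at 60h, and lower in 6 and higher in 2 at 0h. Periostin POSTN, thrombospondin THBS1 and EDIL3, which bind integrins of ITGAV, were lower at 60h (log2 change -3.39, -1.71 and -2.09). All 5 latent TGF-beta genes were lower with CBP at 60h, among them TGFB3 (5.75 FPKM in CBP cells, 15.2 FPKM in WT cells) and the latency protein LTBP1 (2.32-fold lower), and at 0h 3 were lower and 2 higher. The collagen chain COL1A1 had 1551 FPKM in CBP cells and 2854 FPKM in WT cells at 60h, and 294 and 653 FPKM at 0h.

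**Figure D5:**
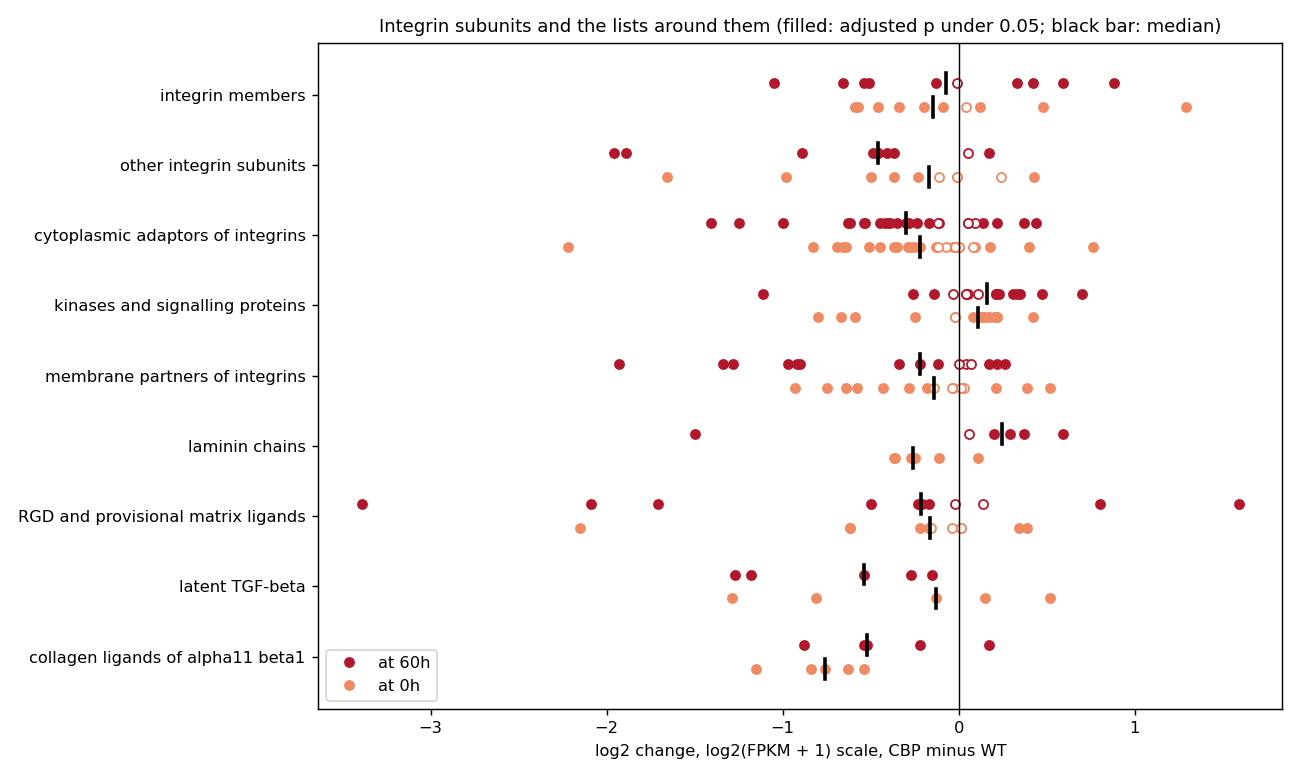
Log2 change of CBP minus WT (x axis, log2(FPKM + 1) scale) of the 10 members and of the genes tested in each list around them, at 60h (dark, upper row of a list) and at 0h (light), with a black bar for the median and filled points for an adjusted p under 0.05. The medians of the members are -0.07 at 60h and -0.14 at 0h, and those of the cytoplasmic adaptors are -0.30 and -0.22.

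Markers listed for muscle and for other cell types moved beside these values. In bulk RNA the cells that held these transcripts are not known. The summed FPKM of the 5 fibroblast markers was 123 to 149 in CBP cells and 135 to 148 in WT cells at 60h, and 19.6 to 22.0 in CBP cells and 49.7 to 51.8 in WT cells at 0h. At 60h 2 of these 5 were higher with CBP (PDGFRA at 20.8 against 10.3 FPKM, and LUM at 15.4 against 12.9 FPKM, not called with median-of-ratios scaling). Lower at 60h were 2, DPT at 0.666 against 14.5 FPKM and TCF21 at 0.986 against 2.69 FPKM. At 0h 1 was higher and 3 lower. For this and the next marker lists, 44.7% of all genes were called higher and 27.0% lower at 60h, and 44.2% and 18.1% at 0h. The 5 smooth muscle and pericyte markers summed to 2616 to 2810 FPKM in CBP cells and 3725 to 3734 FPKM in WT cells at 60h, and to 1404 to 1452 and 3540 to 3690 FPKM at 0h. ACTA2 (1558 against 2567 FPKM at 60h) and TAGLN (1110 against 1117 FPKM) carried most of this sum. At 60h 3 of these markers were lower with CBP, 1 was higher (RGS5, 8.44 against 4.57 FPKM) and 1 was not called. At 0h all 5 were lower, though RGS5 was not called with quantile scaling. The 8 muscle markers summed to 1355 to 1471 FPKM in CBP cells and 2259 to 2437 FPKM in WT cells at 60h, and to 373 to 405 and 1494 to 1511 FPKM at 0h. At 60h 5 of them were lower with CBP, among them DES, MYH3 and MYOG, which carry most of the sum, and 2 were higher, PAX7 (12.3 against 7.57 FPKM) and MYF5 (102 against 87.4 FPKM, not called with median-of-ratios scaling). MYMK, at 124 against 107 FPKM, did not pass the test, and at 0h all 8 were lower. The part of these shifts in the integrin values was not tested. Endothelial markers summed to at most 4.12 FPKM in any library, leukocyte markers to at most 8.50, epithelial markers to at most 2.44 and Schwann cell markers to at most 0.233. Of the platelet markers, which include ITGA2B, that gene alone had 10.7 to 12.1 FPKM as group means, and GP9 and PPBP at most 2.23 and 0.31 FPKM.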

How the data were processed

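The 12 RNA-seq libraries of porcine muscle satellite cells were built from total RNA (VAHTS Universal V8), per the labels' protocols. The authors deposited FPKM values for 31908 genes in 1 table with 1 column per library. The submitters' processing notes name Trimmomatic, featureCounts and the build Sscrofa11.1. No version, aligner, annotation release or strand setting is given there. Positions are those of RefSeq genes of Sscrofa11.1, matched by symbol.

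The 11636 genes that reached FPKM 1 in 3 or more libraries were tested. The fit (limma 3.58.1, R 4.3.3, two-sided, trended empirical Bayes) took 4 group means of log2(FPKM + 1) from all 12 libraries, with Benjamini-Hochberg adjustment over all genes within each of 5 comparisons. Fold values are ratios of mean FPKM. The fit was tested on simulated data. Library totals came from the steps between FPKM values. All 22521 genes above 0 gave whole reads within 0.001, or for high genes within 0.01 or the rounding of the values. These reads served for depth and 1 alternative. Between replicates, read counts differed by 2.16 to 4.70 times the sampling variance. Members, lists and tests were chosen with earlier results of these data known. Named genes are the members, the nearest profiles and up to 3 called genes with the largest change of each list in each comparison of CBP with WT. A gene that this rule names is not reported here. A few more list genes (FN1, ITGA2B, ITGB4, and those in marker lists) were added after their values were seen.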

Additional observations from a re-analysis of the deposited data

Results flagged for a closer look

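The CBP effect at 60h minus that at 0h passed the interaction test (limma, adjusted p under 0.05 over 11636 genes) for 8 of the 10 members, on the log2(FPKM + 1) scale. Of all genes tested, 24.3% passed it with a higher and 26.7% with a lower value at 60h, so passing is not particular to the integrins. Among the members the difference was negative for ITGA3 (-1.80), ITGB3 (-1.10) and ITGB8 (-0.21), and positive for ITGA7 (0.90), ITGA11 (0.62), ITGB5 (0.48), ITGA6 (0.41) and ITGB1 (0.21). For ITGA3, ITGA7 and ITGA11 the effect had opposite signs in the 2 stages and passed the test in each, while for ITGB8 the interaction had a limma adjusted p of 0.0399 that was lost in 14 alternative settings.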

How the results depend on the processing

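The counts of members called higher and lower in the 5 comparisons stayed within 1.5 times their value in all 170 recomputations, which changed the pseudocount, filter, scaling, libraries fitted, replicate block or test, or left out 1 library. With a filter at FPKM 5, ITGB8 was not tested. Of the single member values, 809 kept their sign and side of the threshold, 26 lost a call and 3 gained one. Signs turned in 7, none of which was past the threshold after the change: ITGB3 at 0h was -0.07 after median-of-ratios and -0.02 after quantile scaling, ITGB5 at 0h was -0.01 after median-of-ratios scaling, ITGAV at 60h ran from -0.04 (without WT replicate 3) to 0.02 (without WT replicate 1) with 1 library left out and was 0.00 without CBP replicate 2, and ITGA6 between the stages in CBP cells was 0.05 with TPM and 0.01 after median-of-ratios scaling. Median-of-ratios scaling moved the median change of all genes from 0.12 to 0.00 at 0h and from 0.10 to -0.01 at 60h. ITGAV at 60h was then lower with CBP (-0.14, limma adjusted p = 0.0044). Quantile scaling gave interaction calls for ITGA5 (0.12) and ITGAV (0.14). Same-numbered libraries of different groups did not deviate together (r from -0.0935 to 0.082 over 18 pairs), so the numbers were not read as pairs. With the replicate block, ITGAV at 0h (-0.09, adjusted p = 0.0602) and the ITGB8 interaction (-0.21, adjusted p = 0.0606) lost their calls by limma. The causes of these changes were not tested. Counting error grows as reads fall, and the lowest member value rests on 299 reads (ITGB8 in CBP cells at 0h). Its part in these changes was not tested, and 3 libraries a group limit the precision.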
